A study of Homo sapiens with 8 samples.

Results

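The NRF2 antioxidant response was examined through 9 genes: NFE2L2, which encodes the transcription factor NRF2, its repressor KEAP1, and the antioxidant genes NQO1, HMOX1, GCLC, GCLM, TXNRD1, SRXN1 and SLC7A11. They were taken by name, by their Ensembl identifiers, from the 78932 genes of the deposited count tables. The rule uses no measured value, but the genes were chosen with earlier results of these data known. RNA 3′ ends were sequenced in 8 libraries of HCT116 cells, a human colorectal cancer line, whose NUDT21 carries a degradation tag (dTAG-NUDT21). JTE-607 was present throughout, in all 8 libraries, and is an inhibitor of the pre-mRNA cleavage nuclease CPSF73. With it, 4 libraries had DMSO, the solvent, and the other 4 had dTAGV1, which directs tagged protein to degradation. The NUDT21 product is the smaller part of cleavage factor Im and binds nascent RNA near poly(A) sites. Doses, treatment times and whether the tagged line is 1 clone are not given in the sources used here, and no group lacked JTE-607, so the comparison is of dTAGV1 with DMSO in the presence of JTE-607.

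In unstressed cells KEAP1 holds NRF2 in a ubiquitin ligase complex and it is degraded. Oxidants and electrophiles modify KEAP1, NRF2 escapes, and it binds antioxidant response elements together with small MAF proteins. The genes it activates supply glutathione, reduce thioredoxin, detoxify quinones and break down heme. BACH1 competes for the same elements, with HMOX1 as its best known target, and SLC7A11 also responds to the stress factor ATF4.

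Promoter letters are shown for the 3 genes with a start-site window that holds the core of the antioxidant response element. They are given because KEAP1 was lower and TXNRD1 higher in the comparison below, although each has a window with these letters. RefSeq windows of 300 bases (250 before and 50 after a start site, GRCh38.p14) were found for 7 of the 9 genes, 10 windows in all, and HMOX1 and SLC7A11 were not matched. The motif searched was TGACNNNGC on both strands. It was in 4 of the 10 windows, from KEAP1, GCLM and TXNRD1, and in 13.3% of all 35116 windows of this length. Another window of KEAP1, chr19:10503307-10503606, held no match. Capitals mark the matched letters, and no matches overlapped.
KEAP1 chr19:10502722-10503021 (minus strand): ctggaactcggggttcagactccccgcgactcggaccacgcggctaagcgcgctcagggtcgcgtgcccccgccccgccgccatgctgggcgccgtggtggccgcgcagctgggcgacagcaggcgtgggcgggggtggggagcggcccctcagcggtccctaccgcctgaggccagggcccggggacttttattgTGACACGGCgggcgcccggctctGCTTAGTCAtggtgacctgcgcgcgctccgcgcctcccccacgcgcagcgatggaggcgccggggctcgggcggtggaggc
GCLM chr1:93909381-93909680 (minus strand): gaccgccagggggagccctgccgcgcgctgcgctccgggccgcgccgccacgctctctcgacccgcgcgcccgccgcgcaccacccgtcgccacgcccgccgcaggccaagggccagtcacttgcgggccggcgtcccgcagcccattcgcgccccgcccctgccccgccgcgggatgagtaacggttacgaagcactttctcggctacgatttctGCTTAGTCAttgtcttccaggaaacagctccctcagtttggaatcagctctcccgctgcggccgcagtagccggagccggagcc
TXNRD1 chr12:104215529-104215828 (plus strand): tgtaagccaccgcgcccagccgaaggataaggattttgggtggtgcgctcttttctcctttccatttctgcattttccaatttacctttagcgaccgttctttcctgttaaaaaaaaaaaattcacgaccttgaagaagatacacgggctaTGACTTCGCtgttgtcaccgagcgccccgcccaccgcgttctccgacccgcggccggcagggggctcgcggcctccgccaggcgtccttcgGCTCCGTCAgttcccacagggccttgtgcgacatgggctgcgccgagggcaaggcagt
TXNRD1 chr12:104286782-104287081 (plus strand): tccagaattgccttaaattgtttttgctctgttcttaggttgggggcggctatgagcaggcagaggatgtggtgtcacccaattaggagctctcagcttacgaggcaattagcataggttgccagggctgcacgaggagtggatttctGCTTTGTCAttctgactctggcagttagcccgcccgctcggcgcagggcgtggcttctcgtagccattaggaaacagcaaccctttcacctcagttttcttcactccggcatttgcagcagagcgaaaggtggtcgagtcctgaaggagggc
The match of GCLM starts 34 bases before the start site and that of KEAP1 nearest to the start site 31 bases before it, and both read GCTTAGTCA. A further match of KEAP1 starts at -54. TXNRD1 has matches at -99 and -8 in its upstream window and at -102 in the other. A match is a run of letters and not a measured binding site, and elements outside these windows were not searched.

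Levels are given as CPM, the reads of a gene per 1e+06 counted reads of its library after TMM scaling. Runs of 4 values follow the replicate numbers 1 to 4, and group means are ± SD (n = 4 each). Libraries held 3447842 to 4291256 reads counted to genes on the sense strand, and the 9 genes took 0.118% to 0.125% of them with DMSO and 0.145% to 0.154% with dTAGV1. The epithelial markers EPCAM, KRT8, KRT18, KRT19, CDH1 and CDX2 had reads in every library. CEACAM5, LGALS4, VIL1 and KRT20 were under 1 CPM on average in both. The epithelial list of 11 summed to 1579 to 1833 CPM with DMSO and 1256 to 1354 CPM with dTAGV1, and its part in the results was not tested. Its members went both ways, since KRT18 and KRT19 were lower, EPCAM was higher, and KRT8, CDH1 and CDX2 did not pass. The 7 blood and endothelial markers summed to 1.93 to 3.01 CPM with DMSO and 0.604 to 1.42 CPM with dTAGV1, and of the 6 fibroblast markers COL3A1, DCN and LUM had no reads. COL1A1, from the same list, had 64 to 73 reads with DMSO and 37 to 60 with dTAGV1, and COL1A2 and PDGFRB had 0 to 4 per library. NUDT21 itself had 104, 139, 131 and 129 counts with DMSO and 34, 29, 15 and 43 with dTAGV1, lower in each dTAGV1 library. The tag acts on the protein, which was not measured. The unmapped share was 27.7% to 28.9% with DMSO, 30.3% and 29.9% in dTAGV1 replicates 1 and 2, and 24.9% and 20.4% in dTAGV1 replicates 3 and 4.

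The NRF2 pathway genes did not move as a block. NFE2L2, TXNRD1 and HMOX1 were about 2-fold higher with dTAGV1, NQO1 was about 3-fold lower, and KEAP1 was lower by a smaller amount. GCLC, GCLM and SLC7A11 did not pass the test, and SRXN1 was listed at 0 in every library. Of the 8 genes that passed the filter on low counts, 3 were higher and 2 lower (edgeR, quasi-likelihood F test, p adjusted by Benjamini-Hochberg over all 12618 genes tested, threshold 0.05). That is 62.5% of the 8, where 57.9% of all tested genes were called, 29.4% higher and 28.5% lower. The median log2 change (dTAGV1 over DMSO) of the 8 was -0.08 and that of all tested genes 0.01. CPM of the groups did not overlap for NFE2L2, NQO1, HMOX1 and TXNRD1, 4 of the 8, and for 50.9% of all tested genes. CPM are shares of a library, so fewer cells with a transcript, less of it per cell and a change in total RNA cannot be told apart.

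**Figure D1:**
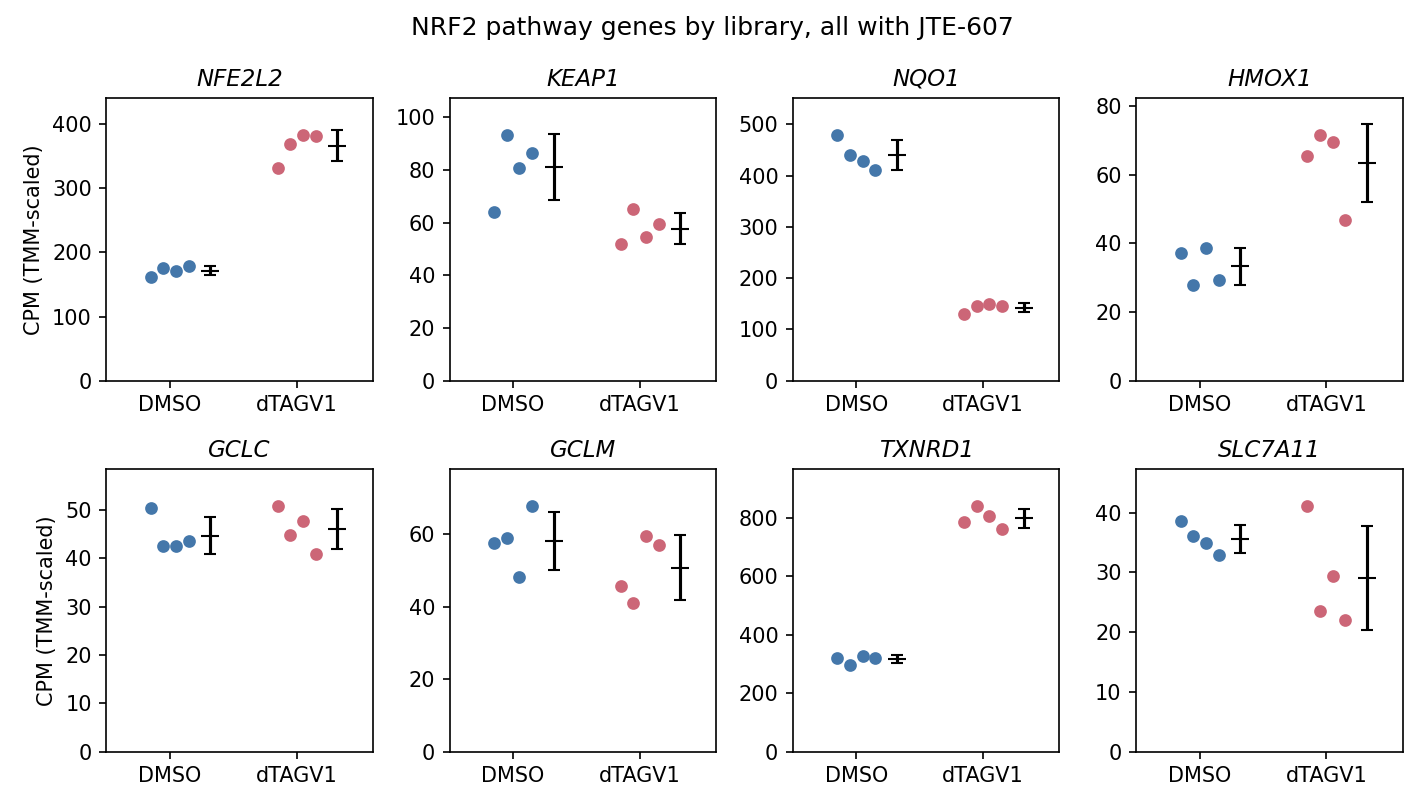
CPM (vertical axes, linear and starting at 0) of the 8 genes with counts in each of 4 DMSO and 4 dTAGV1 libraries, all with JTE-607. Points are libraries in replicate order from left to right, and bars are the mean ± SD of each group. NFE2L2, NQO1, HMOX1 and TXNRD1 separate without overlap, in both directions.

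NFE2L2 (ENSG00000116044; GRCh38 chromosome 2, 177227595 to 177392697, minus strand, protein-coding, GENCODE 29) encodes the activator. It stood at 162, 175, 170 and 179 CPM with DMSO and at 331, 370, 383 and 381 CPM with dTAGV1. Every dTAGV1 library was well above every DMSO library. The means were 171 ± 7.15 and 366 ± 24.1 CPM, a log2 change of 1.09 (SE 0.07, edgeR adjusted p = 3.57e-12). On the linear scale this is 2.14-fold, with a 95% interval of 1.93 to 2.37.

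KEAP1 (ENSG00000079999; chromosome 19, 10486120 to 10503741, minus strand, protein-coding), the adaptor that brings NRF2 to its ubiquitin ligase, had 63.9, 93.3, 80.8 and 86.5 CPM with DMSO. With dTAGV1 it had 51.9, 65.2, 54.5 and 59.4 CPM. The groups overlap, because DMSO replicate 1 lies below dTAGV1 replicate 2. From 81.2 ± 12.6 to 57.7 ± 5.89 CPM, KEAP1 fell by 0.49 on the log2 scale (SE 0.11, edgeR adjusted p = 0.000383). Without DMSO replicate 1 the log2 change was -0.60. Counts of NFE2L2 were 1.88 to 2.53 times those of KEAP1 in the DMSO libraries and 5.67 to 7.03 times in the dTAGV1 libraries. This ratio within a library does not depend on how libraries are scaled. It is a ratio of RNA reads with no test attached, and neither protein was measured.

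NQO1 and TXNRD1, both much used as readouts of NRF2 activity, moved in opposite directions. NQO1 (ENSG00000181019; chromosome 16, 69706996 to 69726951, minus strand, protein-coding) encodes a quinone reductase. Its levels were 479, 439, 429 and 411 CPM with DMSO and 129, 145, 149 and 146 CPM with dTAGV1. The lowest DMSO library was above the highest dTAGV1 library by more than the spread of either group. It fell from 440 ± 28.9 to 142 ± 8.94 CPM, and the log2 change was -1.63 (SE 0.07, edgeR adjusted p = 7.31e-15). Only 2.95% of all tested genes had a lower log2 change.

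TXNRD1 (ENSG00000198431; chromosome 12, 104215779 to 104350305, plus strand, protein-coding) encodes the cytosolic thioredoxin reductase, a selenoprotein that keeps thioredoxin reduced. It had 322, 299, 329 and 321 CPM with DMSO and 785, 841, 808 and 762 CPM with dTAGV1. The libraries of each group lie close together and far from the other group. It rose from 318 ± 13.2 to 799 ± 33.4 CPM, a log2 change of 1.33 (SE 0.07, edgeR adjusted p = 3.89e-14), or 2.52-fold with a 95% interval of 2.29 to 2.77. NQO1 gave more reads than TXNRD1 in each DMSO library, by 1.28 to 1.49 times, whereas in the dTAGV1 libraries its reads were 0.165 to 0.192 times those of TXNRD1. This pair was singled out after its values were seen, so no test is attached to the ratio.

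HMOX1 (ENSG00000100292; chromosome 22, 35380361 to 35394214, plus strand, protein-coding) encodes heme oxygenase 1, which opens the heme ring to biliverdin and frees its iron. It had 37.2, 28.0, 38.7 and 29.4 CPM with DMSO and 65.5, 71.6, 69.5 and 46.8 CPM with dTAGV1. The groups do not overlap, and dTAGV1 replicate 4 lies closest to the DMSO range. HMOX1 rose from 33.3 ± 5.39 to 63.4 ± 11.3 CPM, a log2 change of 0.92 (SE 0.13, edgeR adjusted p = 4.23e-06).

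Glutathione synthesis starts with glutamate-cysteine ligase, whose catalytic subunit is GCLC and whose modifier subunit is GCLM. GCLC (ENSG00000001084; chromosome 6, 53497341 to 53616970, minus strand, protein-coding) had 50.3, 42.4, 42.4 and 43.5 CPM with DMSO and 50.7, 44.7, 47.7 and 40.9 CPM with dTAGV1. The ranges nearly coincide. The log2 change was 0.04 with a 95% interval of -0.18 to 0.26 (edgeR adjusted p = 0.76), so this interval leaves out a rise as large as that of NFE2L2, TXNRD1 or HMOX1.

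GCLM (ENSG00000023909; chromosome 1, 93885205 to 93909456, minus strand, protein-coding) had 57.7, 59.1, 48.3 and 67.8 CPM with DMSO. With dTAGV1 it had 45.6, 41.1, 59.5 and 57.0 CPM. Replicates 1 and 2 of dTAGV1 were below all DMSO libraries and replicates 3 and 4 were within their range. The log2 change was -0.19 with a 95% interval of -0.44 to 0.06 (edgeR adjusted p = 0.174). With dTAGV1 replicates 1 and 2 alone it was -0.44 (edgeR adjusted p = 0.00745), and these are the 2 dTAGV1 libraries with the larger shares of unmapped reads, whose part in the result was not tested.

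SLC7A11 (ENSG00000151012; chromosome 4, 138164097 to 138242349, minus strand, protein-coding) encodes the transport subunit of the cystine-glutamate exchanger, which brings in the cystine for glutathione. Its values were 38.5, 36.2, 34.95 and 32.9 CPM with DMSO and 41.1, 23.6, 29.5 and 22.0 CPM with dTAGV1. Replicate 1 of dTAGV1 was above all DMSO libraries, and the other 3 were below all of them. The log2 change was -0.30 with a 95% interval of -0.62 to 0.02 (edgeR adjusted p = 0.0998). Without dTAGV1 replicate 1 it was -0.52 (edgeR adjusted p = 0.00179). It also passed with all 8 libraries under 4 other choices of processing, so no firm call is made.

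**Figure D2:**
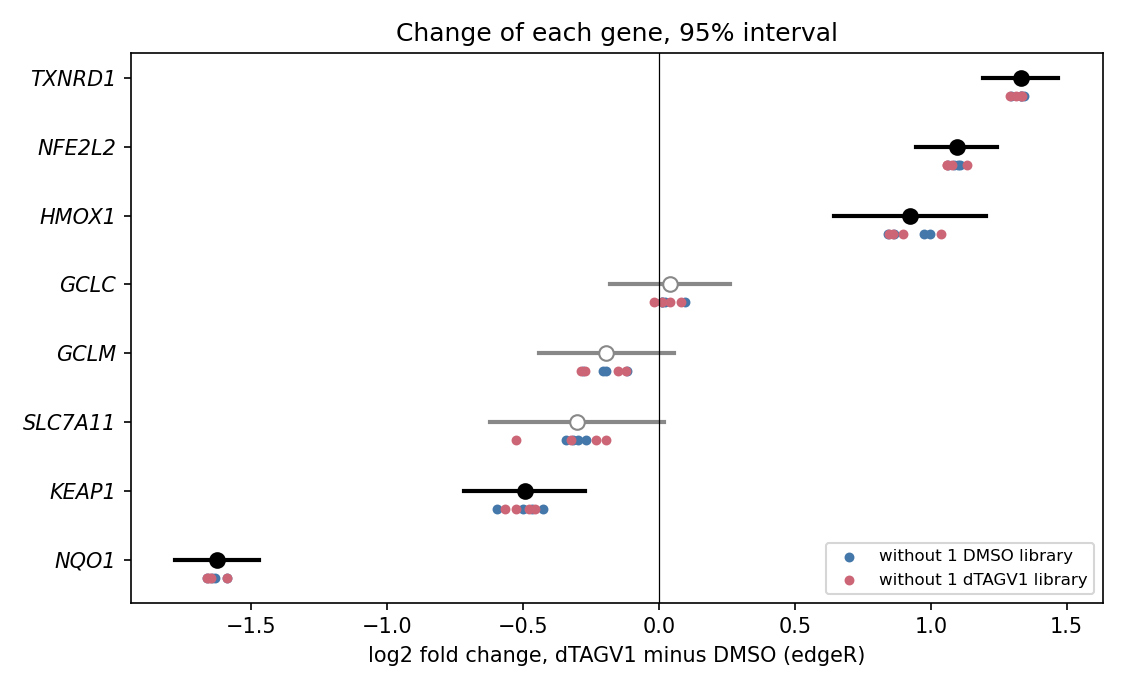
Log2 fold change of each gene, dTAGV1 minus DMSO, from the edgeR fit (large points, with 95% intervals as lines). Filled points passed an adjusted p of 0.05 and open points did not, and small points give the value with 1 library left out. TXNRD1, NFE2L2 and HMOX1 lie to the right of 0, NQO1 and KEAP1 to the left, and 1 small point of SLC7A11, without dTAGV1 replicate 1, stands at -0.52.

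By level, the order with DMSO was NQO1, TXNRD1, NFE2L2, KEAP1, GCLM, GCLC, SLC7A11 and HMOX1, and with dTAGV1 it was TXNRD1, NFE2L2, NQO1, HMOX1, KEAP1, GCLM, GCLC and SLC7A11. Reads come from transcript ends, so these are compared without a length correction. With DMSO the ranges of KEAP1 and GCLM, of GCLM and GCLC, and of SLC7A11 and HMOX1 overlap. With dTAGV1 each gene from HMOX1 down overlaps the next one, while the first 3 stand clear of each other and of the rest.

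SRXN1 (ENSG00000271303; chromosome 20, 646615 to 653370, minus strand, protein-coding) encodes sulfiredoxin, which repairs over-oxidized peroxiredoxins. It was listed at 0 in all 8 libraries, also irrespective of strand. The gene AL121758.1 lies over it on the same strand and shares 2292 of its 2698 exonic bases (85.0%, GENCODE 29), and AL121758.1 was listed at 0 in all libraries too. In this layout reads that fit both genes are given to neither, so the 0 is no measure of whether SRXN1 was expressed.

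The opposite strand of NFE2L2 also carried reads. On the strand opposite to it, 370, 486, 418 and 476 reads were counted with DMSO and 246, 272, 223 and 317 with dTAGV1. They were 38.4% to 40.1% of the reads given to either strand of the gene with DMSO and 14.6% to 18.2% with dTAGV1. In a fit to opposite-strand counts alone, in which 48.4% of 3324 genes were called, the log2 change was -0.75 (SE 0.10, edgeR adjusted p = 3.89e-07). The sense reads thus rose while the reads across from them fell. No other of the 9 genes had enough opposite-strand reads to test, and NQO1 had the most of them, with 3 to 15 per library. In the counts made irrespective of strand, NFE2L2 had 494, 639, 534 and 610 reads with DMSO. With dTAGV1 it had 880, 935, 999 and 1251 there, a log2 change of 0.92. In every library these were fewer than the sense reads alone, so those counts do not add the strands. The change in the sum of both strands was not tested.

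**Figure D3:**
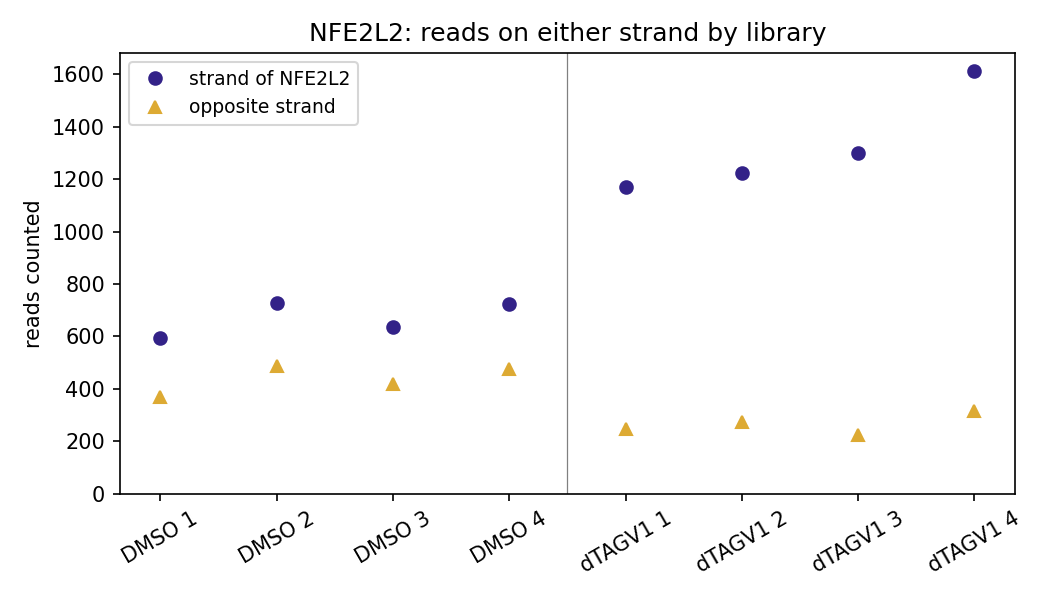
Reads counted on the strand of NFE2L2 (circles) and on the opposite strand (triangles) in each of the 8 libraries (horizontal axis). The vertical axis is the raw number of reads, and the line parts DMSO from dTAGV1. Circles are higher in all dTAGV1 libraries and triangles lower, at 223 to 317 against 370 to 486.

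Genes annotated inside or within 5 kb of the 9 genes were looked up because reads near their ends can be given to a neighbour. Of these, 9 had enough reads to be tested. HNRNPA3, which codes for an RNA-binding protein and runs towards NFE2L2 from the other strand, ends 3637 bases from it and had a log2 change of -0.41 (edgeR adjusted p = 0.000137). AGPS, which shares 54 exonic bases with NFE2L2 across the strands at its 5′ side, had one of 0.60 (edgeR adjusted p = 9.84e-06).

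On the strand of NFE2L2, the processed pseudogene DNAJC19P5 lies 797 bases past the 3′ end that RefSeq gives NFE2L2, yet inside the longer GENCODE gene. It had 7, 10, 3 and 7 reads with DMSO and 45, 48, 57 and 51 with dTAGV1. All dTAGV1 libraries were higher, with a log2 change of 2.99 (SE 0.27, edgeR adjusted p = 1.34e-09). AC019080.1, which shares 1054 exonic bases with NFE2L2 on its strand, had a log2 change of 0.16 (edgeR adjusted p = 0.475). Reads that fit both were given to neither.

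Within TXNRD1, the intronic gene EID3 on the same strand had 2, 10, 6 and 3 reads with DMSO and 16, 31, 20 and 29 with dTAGV1. Its log2 change was 2.28 (edgeR adjusted p = 1.14e-05). The antisense gene AC089983.1 inside TXNRD1 had one of 1.51 (edgeR adjusted p = 0.000201). AC011461.1 inside KEAP1 and NFAT5 beside NQO1 had adjusted p-values of 0.372 and 0.89 (edgeR, Benjamini-Hochberg). Counts per gene do not show which poly(A) site a read came from, so whether these genes and their hosts differ in site use was not tested.

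The wider pathway was described with 8 lists of 101 genes, of which 77 were tested. Of these, 27 were higher, 22 were lower and 28 did not pass (edgeR, adjusted p under 0.05), or 63.6% called against 57.9% of all genes. Their median log2 change was 0.08. Against a fold change of 1.2, 29 of the 77 passed, and 42.1% of all tested genes did. No list was tested as a set.

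Among 13 tested partners and regulators of NRF2, 6 were higher and 1 lower, with a median log2 change of 0.23. That is 53.8% called, where 57.9% of all tested genes were called. BACH1, the competing repressor, rose from 19.8 ± 1.43 to 32.6 ± 3.43 CPM, a log2 change of 0.72 (edgeR adjusted p = 4.57e-05). It was higher in each dTAGV1 library while HMOX1, its known target for repression, was higher too. Of the small MAF genes, MAFK had a log2 change of 0.45 (edgeR adjusted p = 1.96e-05), and MAFF and MAFG did not pass, at 0.02 and -0.08. RBX1, the RING subunit of the ligase that KEAP1 serves, fell by 0.32 on the log2 scale, a call lost in the test against a fold change of 1.2, and its scaffold CUL3 did not pass, at 0.09. The kinase gene GSK3B, at 0.34, and BTRC and FBXW11, at 0.45 and 0.65, were all higher. Their products mark NRF2 for destruction by a route that does not use KEAP1.

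Of 15 tested genes of glutathione use and transport, 5 were higher and 6 lower, with a median of -0.05. The share called was 73.3%, against 57.9% of all tested genes. CHAC1, which degrades glutathione and is also a target of ATF4, rose from 6.62 ± 2.19 to 18.5 ± 8.86 CPM, a log2 change of 1.49 (edgeR adjusted p = 0.00236). Its highest value, 30.3 CPM, was in dTAGV1 replicate 1, the library in which SLC7A11 was also highest. Some genes of other lists were highest in that library too, and the part of ATF4 was not tested. The exporter gene ABCC3 fell by 0.77 on the log2 scale. SLC3A2, the partner chain of SLC7A11, did not pass, with a log2 change of -0.05.

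Thioredoxin and peroxiredoxin genes numbered 14 tested, with 2 higher, 5 lower and a median of -0.05, and only 1 was higher in 15 of 20 alternatives. Calls made up 50% of the 14, against 57.9% of all tested genes. PRDX3, the mitochondrial peroxiredoxin, fell from 172 ± 11.6 to 48.0 ± 8.25 CPM, a log2 change of -1.84 (edgeR adjusted p = 1.47e-13). PRDX4, the peroxiredoxin of the endoplasmic reticulum, rose from 102 ± 2.8 to 201 ± 13.2 CPM, a log2 change of 0.98 (edgeR adjusted p = 6.14e-11). PRDX1, a cytosolic one and the most abundant of the list, fell by 0.24 on the log2 scale, but it did not pass a test against a fold change of 1.2. TXNRD1 rose, while the gene of its substrate thioredoxin, TXN, fell by 0.32 on the log2 scale (edgeR adjusted p = 0.00285). TXN had 188, 202, 239 and 258 CPM with dTAGV1, where replicates 3 and 4 lay nearer to the DMSO range of 262 to 291 CPM. The lower count of the list, 5, was 4 with dTAGV1 replicates 3 and 4 only and 3 against a fold change of 1.2.

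NADPH feeds TXNRD1 and NQO1, and a list of genes around its supply had 8 tested, with 1 higher and 3 lower. That is 50% called, where 57.9% of all tested genes were called. The median was -0.22, or 0.02 when genes averaging under 100 counts were dropped. NADPH itself was not measured. IDH2, the mitochondrial isocitrate dehydrogenase, fell from 37.5 ± 1.5 to 10.04 ± 0.902 CPM, a log2 change of -1.89 (edgeR adjusted p = 2.95e-11). TKT, a pentose phosphate enzyme, had a log2 change of 0.35, but dTAGV1 replicate 4, at 348 CPM, was within the DMSO range, and the call was lost with dTAGV1 replicates 3 and 4 alone, at 0.23, and in the test against a fold change of 1.2.

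Of 10 tested quinone, carbonyl and xenobiotic detoxification genes, 7 were higher and 1 lower, with a median of 0.33, where 29.4% of all tested genes were higher. The list has 17 genes, and 7 were not tested. Against a fold change of 1.2, 3 were higher, where 42.1% of all tested genes passed in either direction. UGDH, which makes the sugar donor for glucuronidation, rose from 61.5 ± 5.22 to 91.2 ± 9.5 CPM, a log2 change of 0.57 (edgeR adjusted p = 1.65e-05). POR, the electron donor of cytochromes P450, was the 1 lower gene, at -0.30, and its call was lost in 9 of 20 alternatives. NQO2, the closest relative of NQO1, did not pass, with a log2 change of -0.24.

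Heme and iron genes were called in 8 of 9 cases, 4 higher and 4 lower, with a median of -0.04, where 57.9% of all tested genes were called. Against a fold change of 1.2, 3 were higher and 2 lower, where 42.1% of all tested genes passed. Both ferritin chains, which store iron and are NRF2 targets, were higher in every dTAGV1 library. FTH1 rose from 1019 ± 51.9 to 1827 ± 159.8 CPM, a log2 change of 0.84, and FTL from 1449 ± 150.9 to 2401 ± 112 CPM, one of 0.73. Adjusted p-values were 2.79e-10 and 4.51e-09 (edgeR, Benjamini-Hochberg). Both have processed pseudogenes that can share reads, so their levels are uncertain. BLVRB, a biliverdin reductase downstream of HMOX1, fell by 0.83 on the log2 scale (edgeR adjusted p = 1.27e-07).

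Among 4 tested superoxide and hydrogen peroxide enzymes, 0 were higher and 2 lower, with a median of -0.19. This is 50% called, against 57.9% of all tested genes. The lower count was 1 without DMSO replicate 3 or 4, without dTAGV1 replicate 2 or 3, and against a fold change of 1.2. SOD1, the cytosolic superoxide dismutase, fell from 616 ± 21.9 to 393 ± 36.4 CPM, a log2 change of -0.65 (edgeR adjusted p = 3e-08). SOD2, the mitochondrial form, did not pass, at 0.12. Of 4 other reported NRF2 targets, 2 were higher and 0 lower, also 50% called, with a median of 0.48. The higher count ran from 0 to 3 over the alternatives, and the median was -0.11 when genes averaging under 100 counts were dropped. None of these 4 was both called and at 10 CPM or more.

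**Figure D4:**
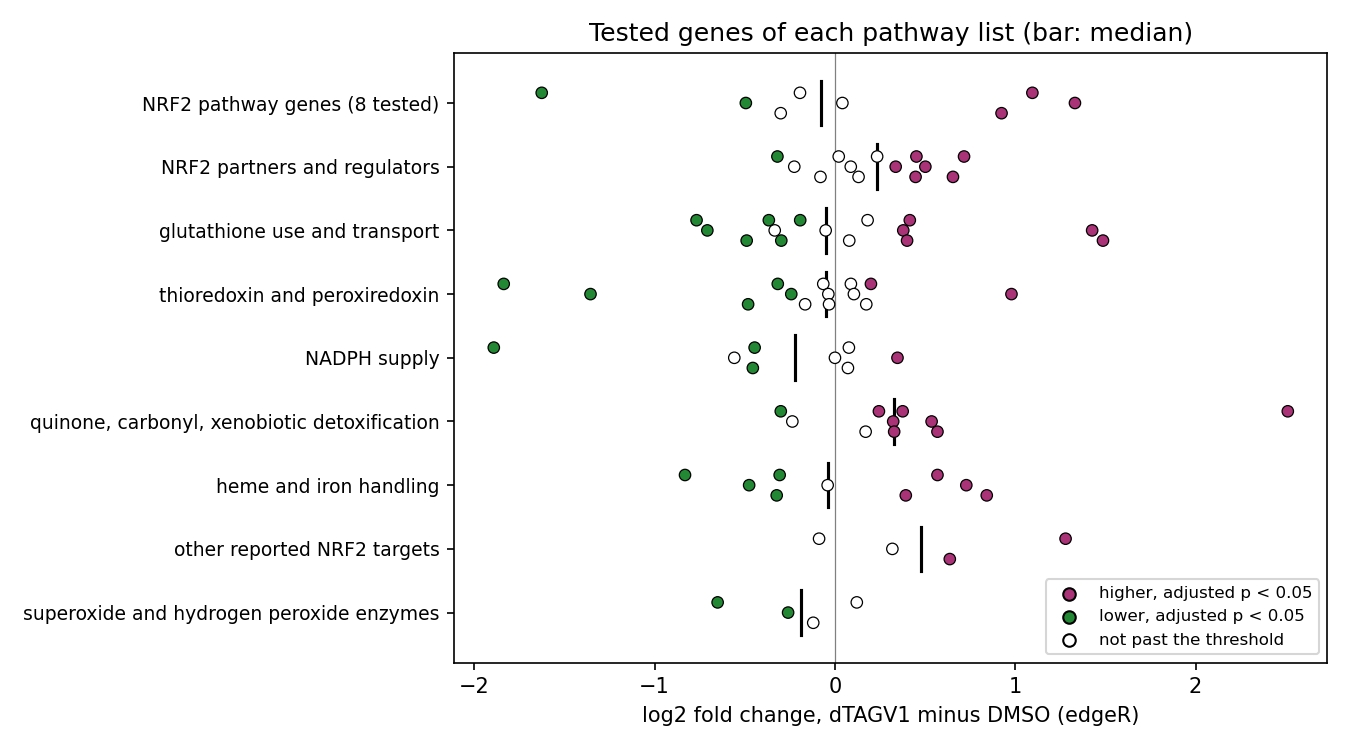
Log2 fold changes (horizontal axis, dTAGV1 minus DMSO) of the tested genes of the NRF2 pathway and of 8 wider lists (rows). Each point is a gene, filled where the adjusted p was under 0.05, bars are medians, and vertical offsets only separate points. Each list from NRF2 partners to heme and iron handling has filled points on both sides of 0.

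By level over the 8 libraries, TMEM59, OSBPL9 and ITM2B had the patterns most like that of NFE2L2 among 9050 genes with at least 10 CPM. Pearson's r of log2 CPM was 0.999, 0.998 and 0.997. All libraries share the same 2 treatments. Of these genes, 1532 had an r of at least 0.9 and 1369 had one of at most -0.9. Values this high or this low are thus common here. Within the pathway, r with NFE2L2 was 0.988 for TXNRD1, 0.867 for HMOX1, 0.097 for GCLC, -0.389 for GCLM, -0.631 for SLC7A11, -0.764 for KEAP1 and -0.984 for NQO1.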

How the data were processed

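RNA was isolated by Trizol and prepared for sequencing with Lexogen's QuantSeq FWD V2 kit, which reads transcript 3′ ends, per the labels' protocols. The deposited values are raw counts of reads per gene in the layout of STAR, with unstranded, sense and antisense columns. The submitters' processing notes name FastQC, fastp, STAR, HTSeq, DESeq2 and GRCh38, without versions. The annotation used and how duplicates were handled are not given in the sources used here. Sense counts were used, since the kit is forward-stranded and they exceeded opposite-strand counts by 8.28 to 8.48 times. Totals of reads given to no gene, unmapped ones included, were 56.7% to 62.8% of each library and stayed out of library sizes and tests. Among uniquely mapped reads, the share in no gene on the sense strand was 30.1% to 33.7% with DMSO. With dTAGV1 it was 35.9% to 37.4%, above the DMSO range in each library, and the part of this difference in the results was not tested. Each transcript gives a read near its end, so no length correction was made.

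Genes were tested with edgeR 4.0.16 in R 4.3.3 (filterByExpr, TMM, robust estimateDisp and glmQLFit, quasi-likelihood F test, Benjamini-Hochberg over all tested genes, threshold 0.05). CPM are TMM-scaled. The standard error is the absolute log2 change over the square root of F. The same fit was run on simulated counts of 12618 genes, of which 200 were changed. It called 72% of these, with 11 false calls. In the data 57.9% of tested genes were called, a setting that the simulation did not cover. Symbols came from a table that held 61481 of 78932 identifiers, and coordinates from GENCODE 29 on GRCh38, which is not stated to be the authors' annotation. The symbol TRIM16L had 2 identifiers, of which the one with more counts was used.

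All 9 genes of the pathway are named. From each wider list the called genes with the largest increase and decrease at a mean of at least 10 CPM are named, with those of at least 1000 CPM. Other list genes were named after their values were seen, for their role. The genes and lists were chosen with earlier results of these data known. Same-numbered libraries deviated together at r of 0.131, -0.0176, 0.0232 and 0.034 for numbers 1 to 4, so the numbers were not taken to pair them. The labels do not say that libraries came from separate cultures, so p-values measure the spread between these libraries, which may be technical. Chi-square over degrees of freedom was 1.82 to 5.09 between libraries of a group, so none is a copy of another. Alternatives were DESeq2 1.42.0, limma-voom (limma 3.58.1), RLE and library-size scaling, 2 other filters, counts irrespective of strand, a replicate block, non-robust dispersions and leaving out each library. A test against a fold change of 1.2 and fits with 2 of the dTAGV1 libraries were added after seeing the data. Figures used matplotlib 3.10.9 in Python 3.11.15. A wider-list gene and a neighbouring gene are not reported here, although they stay in the counts.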

Additional observations from a re-analysis of the deposited data

Results flagged for a closer look

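GCLC in DMSO replicate 1, at 50.3 CPM, stood apart from the other 3 DMSO libraries, which lay at 42.4 to 43.5 CPM. Its gap to the nearest library was larger than Dixon's 95% limit for 4 values. Of 16 groups of 4 libraries checked (8 genes in 2 groups), 1 met this rule, and chance alone gives about 1 in 20.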

How the results depend on the processing

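All 5 called genes of the pathway kept their direction and their call in each of 20 alternatives, with log2 changes of 0.92 to 1.16 for NFE2L2, 1.26 to 1.34 for TXNRD1, 0.80 to 1.04 for HMOX1, -0.60 to -0.43 for KEAP1 and -1.70 to -1.58 for NQO1. GCLC ranged from -0.03 to 0.10, so no direction is given for it. SLC7A11 passed in 6 alternatives. These were scaling by library size (-0.38), keeping low genes (-0.33), counts irrespective of strand (-0.38), the replicate block (-0.32), dTAGV1 replicates 3 and 4 only (-0.48) and the fit without dTAGV1 replicate 1, and leaving out each library gave -0.52 to -0.19. GCLM passed with dTAGV1 replicates 1 and 2 only (-0.44). The cause was not tested for either gene. The replicate block called 7434 genes and changed no other call among the 9 genes. Where genes averaging under 100 counts were dropped, fewer were tested, 4120 were genes changed by dTAGV1 with JTE-607, 2131 were genes higher with dTAGV1 and 1989 were genes lower with dTAGV1. That filter also turned the median log2 change of NADPH supply from -0.22 to 0.02, of heme and iron handling from -0.04 to 0.02 and of other reported NRF2 targets from 0.48 to -0.11. Leaving out a library turned the median of glutathione use and transport (DMSO replicate 2 or dTAGV1 replicate 2) and of heme and iron handling (dTAGV1 replicate 4). Against a fold change of 1.2, 29 of the 77 tested genes of the 8 lists passed in place of 49. Of all 12618 tested genes, 42.1% passed it. Of 1088 alternative values over all results, 1010 kept their call or stayed within the limit, 58 moved, 13 were weaker, 7 stronger and 0 reversed. Only log2 changes of single genes could be marked as reversed, so the 0 does not cover counts or list medians. Among the 1010 are sign changes of GCLC, which passed in no fit, and of the median of glutathione use and transport. Genes with about 10 CPM rest on some 40 reads per library, where small differences were not detectable.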

Other observations

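AKR1C3, AKR1B10, AKR1C1 and AKR1C2, aldo-keto reductases that reduce aldehydes and ketones, had few reads in these libraries. AKR1C3 had 8, 6, 11 and 3 counts with DMSO and 29, 35, 47 and 39 with dTAGV1, a log2 change of 2.51 (SE 0.31, edgeR adjusted p = 2.24e-07). AKR1B10 had 1, 4, 3 and 1 counts with DMSO and 13, 16, 7 and 15 with dTAGV1, and it was under the filter on low counts but passed when low genes were kept in the test (log2 change 2.52, edgeR adjusted p = 9.27e-06). AKR1C1 passed in that fit too (adjusted p = 0.0026, edgeR with Benjamini-Hochberg), and AKR1C2 did not (adjusted p = 0.135). AKR1C1, AKR1C2 and AKR1C3 are close relatives and can share reads, so their values are uncertain. These genes were singled out after their values were seen.

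CBR3, a carbonyl reductase, went the other way, with 7, 6, 5 and 8 counts with DMSO and 0, 0, 0 and 1 with dTAGV1. BACH2, a relative of BACH1, had 4, 4, 7 and 3 counts with DMSO and 13, 8, 14 and 14 with dTAGV1. Both CBR3 and BACH2 were under the filter on low counts. With low genes kept in the test both passed, at an edgeR adjusted p of 9.9e-05 for CBR3 and 0.00413 for BACH2. TXNRD3, a relative of TXNRD1, fell from 29.8 ± 6.88 to 11.6 ± 2.62 CPM, a log2 change of -1.36 (edgeR adjusted p = 6.95e-07), opposite to TXNRD1. GPX8, a peroxidase of the endoplasmic reticulum, rose from 21.0 ± 0.773 to 56.5 ± 4.16 CPM, a log2 change of 1.43 (edgeR adjusted p = 8.34e-11).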
